A study of Arabidopsis thaliana with 6 samples.

Results

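A group of 6 probe sets of the Affymetrix ATH1 array was followed, chosen by identifier as a group of nuclear genes of mitochondrial stress around the alternative oxidase gene AOX1a. They are 6 of the 22746 probe sets tested. The group was chosen with earlier results of these data known, so its shares beside those of all probe sets are descriptions only. The list that defined the group names them AOX1a (AT3G22370), AOX1d (260706_at, AT1G32350), NDB2 (255259_at, AT4G05020), DIC2 (254120_at, AT4G24570), OM66 (252131_at, AT3G50930) and UPOX (263517_at, AT2G21640). The annotation table of the array holds 2 of the 6. It names the NDB2 probe set alike, but it gives 263517_at as RD2 (AT2G21620), and it assigns AT2G21640, the locus of UPOX, to 263515_at. The listed probe set is therefore described as RD2, and the other is described beside the group as the probe set for UPOX. The names of the other 4 are those of the list and could not be checked against the table.

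Total RNA came from Arabidopsis thaliana cells in mixotrophic culture, which combine photosynthesis with growth on a supplied carbon source. A set of 3 replicates received 75 µM phytoprostane A1 (PPA1) for 4 h, and 3 received 0.5% methanol in water for 4 h as controls. PPA1 is a reactive oxylipin, a product of the non-enzymatic oxidation of membrane fatty acids. The labels call the replicates independent without saying whether they came from separate cultures, so the spread behind each p-value is that of these samples and may be technical. The sources used here give neither the accession nor the age of the culture, nor whether PPA1 cells also received methanol.

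Plant mitochondria can pass electrons to oxygen by a route that bypasses the cytochrome pathway. External and internal type II NAD(P)H dehydrogenases feed electrons into ubiquinone, and alternative oxidases hand them from ubiquinol to oxygen, in both steps without pumping protons. When respiration is inhibited or oxidants accumulate, a signal from the mitochondrion to the nucleus raises the transcripts of AOX1a and of a set of other genes, in part through membrane-anchored NAC transcription factors. AOX1a is the gene most often used to report this signal in Arabidopsis.

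Values are the authors' normalized signals on a linear scale, one array per sample, and array medians over the tested probe sets lay between 41.9 and 51.0. With 3 arrays per group, the number of arrays limits the precision. One array stood apart. Over the 10135 probe sets whose log2 signal averaged 6 or more (a signal of 64), 604 were at least 2-fold above the control mean and 630 at least 2-fold below it in PPA1 replicate 1. The corresponding counts were 1072 and 1262 in replicate 2 and 1118 and 1220 in replicate 3. The log2 signals of PPA1 replicates 2 and 3 correlated with r = 0.987, PPA1 replicate 1 with each of them with r = 0.833 and 0.839, and control pairs with r = 0.908 to 0.958. With the controls, PPA1 replicate 1 correlated with r = 0.826 to 0.851, about as closely as with the other treated arrays. PPA1 replicates 2 and 3 correlated with the controls with r = 0.698 to 0.717. Over the 18 probe sets of the hybridisation spikes, both replicate 1 arrays also had the lowest mean log2 values, 8.28 and 8.50 against 8.91 to 9.26 on the other 4 arrays. The 6 members are therefore also given by array.

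After PPA1, AOX1d rose 19.3-fold and RD2 rose 2.71-fold. AOX1a was 1.96-fold and NDB2 3.19-fold higher, and DIC2 was 4.26-fold lower, with no overlap between the groups, but these 3 did not pass the adjusted test. OM66 was 1.56-fold higher with overlapping groups. Thus 2 of the 6 probe sets were called higher and 0 lower (limma with Benjamini-Hochberg adjustment over all tested probe sets, threshold 0.05). Of all tested probe sets, 0.809% were called higher and 0.994% lower. At an unadjusted p under 0.05, 4 of the 6 were higher and 1 was lower, where 8.26% and 14.8% of all probe sets were. All PPA1 arrays lay above all controls in 4 members and below them in 1, which held for 10.8% and 20.1% of all probe sets. The median log2 change was 1.21 over the 6 and -0.21 over all tested probe sets. RNA came from whole cultures, so fewer cells that express a gene and less of its RNA per cell cannot be told apart.

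**Figure D1:**
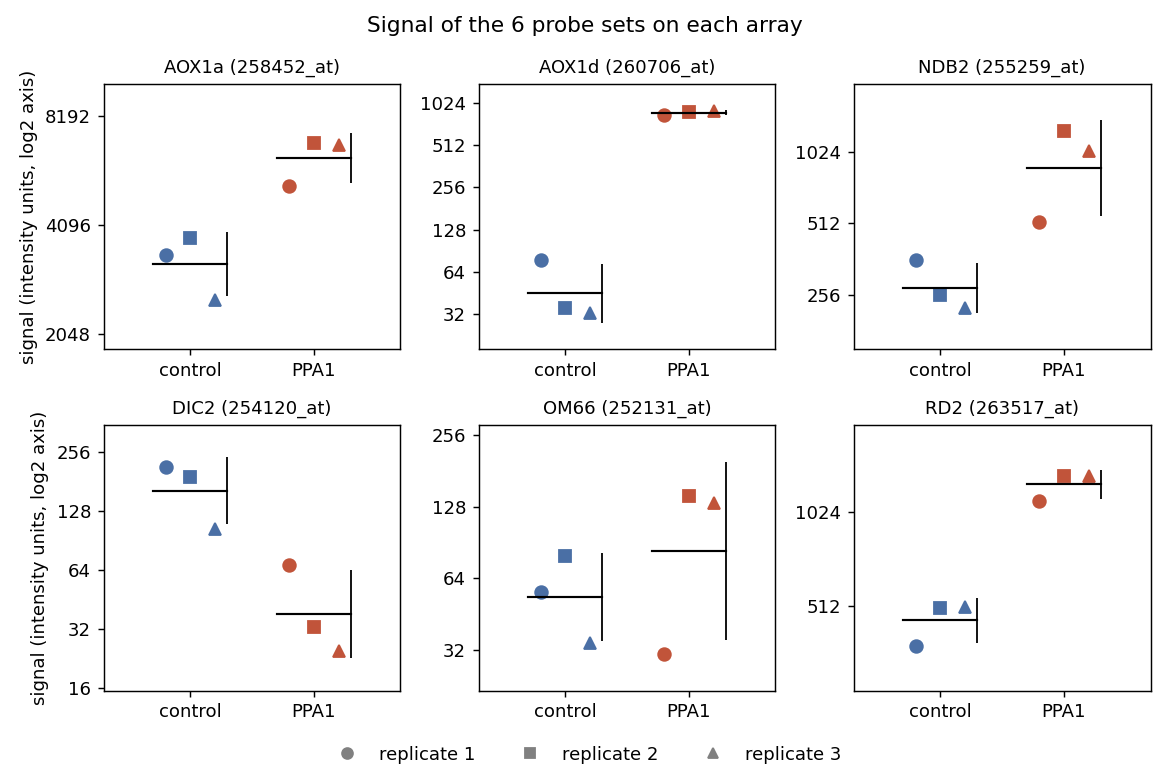
Signal of each probe set on each array, in the authors' intensity units on a log2 axis with a separate range per panel; points are arrays, shaped by replicate number, horizontal lines are means of log2 values and vertical lines 1 SD to each side (n = 3 per group). The groups overlap in 1 panel, OM66, where PPA1 replicate 1 at 30.7 lies below every control.

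AOX1d showed the largest change of the 6. It encodes an alternative oxidase that is usually weakly expressed in unstressed tissue and can rise in stressed or senescing tissue. Its signals were 78.6, 35.8 and 32.8 in control replicates 1 to 3 and 838, 879 and 902 in PPA1 replicates 1 to 3. The lowest treated array was thus far above the highest control, and the treated arrays were close to each other. Mean log2 signals of controls and PPA1 cells were 5.50 ± 0.69 and 9.77 ± 0.05 (SD, n = 3 each). On the log2 scale the change was 4.27 (standard error, SE, 0.38; limma adjusted p = 0.0204), a 95% interval of 10.1-fold to 36.8-fold. Of all tested probe sets, 0.431% had a larger rise. The control signals were low, near the array medians, and with 32 added to every signal before taking log2 the change was 3.52.

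AOX1a, the best studied alternative oxidase of Arabidopsis, was already strong in untreated cells. Its signals were 3381, 3777 and 2546 in control replicates 1 to 3 and 5229, 6906 and 6815 in PPA1 replicates 1 to 3. All treated arrays lay above all controls, with PPA1 replicate 1 the nearest to them. Mean log2 signals were 11.64 ± 0.29 and 12.61 ± 0.23 (SD, n = 3 each), a log2 change of 0.97 (SE 0.25; limma adjusted p = 0.105). The 95% interval of the change ran from 1.28-fold to 3.01-fold, below that of AOX1d at every point. Of all tested probe sets, 9.80% had a larger rise.

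NDB2 is an external NADH dehydrogenase of the inner mitochondrial membrane, whose transcript is known to rise together with that of AOX1a under stress. Its signals were 359, 256 and 224 in control replicates 1 to 3 and 519, 1251 and 1032 in PPA1 replicates 1 to 3. The groups did not overlap, but PPA1 replicate 1 was less than 2-fold above the control mean and the other 2 were more than 3-fold above it. Mean log2 signals were 8.10 ± 0.35 and 9.77 ± 0.67 (SD, n = 3 each). NDB2 thus changed by 1.67 on the log2 scale (SE 0.40; limma adjusted p = 0.0947), a 95% interval of 1.60-fold to 6.35-fold.

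DIC2 was the member that was lower after PPA1. It is a carrier of the inner mitochondrial membrane that exchanges dicarboxylates such as malate. Its signals were 215, 192 and 104 in control replicates 1 to 3 and 67.7, 33.0 and 24.8 in PPA1 replicates 1 to 3. All treated arrays lay below all controls, again with PPA1 replicate 1 the nearest to them. Mean log2 signals were 7.34 ± 0.57 and 5.25 ± 0.75 (SD, n = 3 each). Its log2 change was -2.09 (SE 0.48; limma adjusted p = 0.0897; 95% interval -3.28 to -0.90). With 32 added to every signal the change was -1.45.

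OM66, an AAA-type ATPase of the outer mitochondrial membrane, gave no uniform picture. Its signals were 56.2, 79.5 and 34.1 in control replicates 1 to 3 and 30.7, 142 and 132 in PPA1 replicates 1 to 3. PPA1 replicates 2 and 3 lay above all controls, and PPA1 replicate 1 lay below all of them. The log2 change was 0.64 (SE 0.69; limma adjusted p = 0.605), and its 95% interval ran from 0.479-fold to 5.08-fold. Without PPA1 replicate 1 the change was 1.36 (limma adjusted p = 0.0958), and without any other 1 array limma adjusted p was 0.586 to 0.886.

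The probe set listed as UPOX is RD2 in the annotation table. RD2 was named as a gene responsive to desiccation, and its place in a mitochondrial group rests on the list alone. Its signals were 383, 508 and 511 in control replicates 1 to 3 and 1111, 1335 and 1337 in PPA1 replicates 1 to 3. Each treated array was more than 2-fold above the highest control. Mean log2 signals were 8.86 ± 0.24 and 10.29 ± 0.15 (SD, n = 3 each). RD2 thus changed by 1.44 on the log2 scale (SE 0.22; limma adjusted p = 0.0453), a 95% interval of 1.86-fold to 3.96-fold.

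UPOX itself encodes a small mitochondrial protein named for its rise under oxidative stress. On its probe set, 263515_at, control replicates 1 to 3 read 93.8, 82.2 and 48.3, and PPA1 replicates 1 to 3 read 174, 554 and 651. All treated arrays lay above all controls, with replicate 1 well below the other treated arrays. The log2 change was 2.47 (SE 0.58), or 5.53-fold (limma adjusted p = 0.0924). Without PPA1 replicate 1 it was 3.06, or 8.35-fold (limma adjusted p = 0.0151), and without any other 1 array limma adjusted p was 0.176 to 0.253. PPA1 replicate 1 was singled out for its smaller changes in these data, so the lower p without it is no independent support. Without that array, 1437 of all tested probe sets were called higher and 1708 lower, against 184 and 226 with all arrays. With the probe set for UPOX in place of that for RD2, the group would hold 1 called member in place of 2.

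The 2 calls depended on the set of arrays. Without any 1 of the control arrays, PPA1 replicate 2 or PPA1 replicate 3, neither passed (limma adjusted p from 0.0552 to 0.113 for AOX1d and from 0.108 to 0.178 for RD2), while both passed without PPA1 replicate 1 (0.0130 and 0.0223). With the replicate number as a block neither passed (0.135 and 0.140), and RD2 also missed the threshold after quantile normalization (0.0518). After that normalization 205 of all tested probe sets were called higher and 182 lower. In the block, and without any 1 array other than PPA1 replicate 1, 0 of all tested probe sets were called. The lost calls are thus not particular to AOX1d and RD2. In those settings limma still gave 4 members higher and 1 lower at an unadjusted p under 0.05. Of all tested probe sets, 1208 to 1768 were higher and 2133 to 3032 lower at that limit. Unadjusted limma p there was 7.1e-06 to 5.2e-04 for AOX1d and 0.0024 to 0.0045 for RD2. Setting aside dim probe sets, those with a mean log2 signal under 4 (a signal of 16) over all 6 arrays, worked the other way. Among the 14850 that remained, 5.39% were called higher and 8.79% lower, and 4 members were called higher and 1 lower. The limma adjusted p was then 0.00376 for AOX1d, 0.0102 for RD2, 0.0371 for AOX1a, 0.0320 for NDB2, 0.0295 for DIC2 and 0.495 for OM66.

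Median centring shifted all changes upward and turned none of the 6 directions. With each array centred on its median, the median change of all tested probe sets went from -0.21 to 0.01. The log2 changes were then 4.48 for AOX1d, 1.19 for AOX1a, 1.89 for NDB2, -1.88 for DIC2, 0.85 for OM66 and 1.65 for RD2. AOX1d and RD2 were the 2 members called, as without centring. Over all tested probe sets the calls were 239 higher and 154 lower after centring, against 184 and 226 before it.

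PPA1 replicate 1 changed least from the control mean in all 5 members with separate groups, though to a different extent in each. For AOX1d the log2 differences from the control mean were 4.21, 4.28 and 4.32 in PPA1 replicates 1 to 3, so that this array hardly differed from the others. RD2 gave 1.26, 1.53 and 1.53, and AOX1a gave 0.71, 1.11 and 1.09. For NDB2 the differences were 0.92, 2.19 and 1.91, and for DIC2 they were -1.26, -2.30 and -2.71, so that replicate 1 showed a clearly smaller change. OM66 gave -0.80, 1.41 and 1.31, with replicate 1 on the other side of the control mean. No test was made of these differences within 3 treated arrays.

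**Figure D2:**
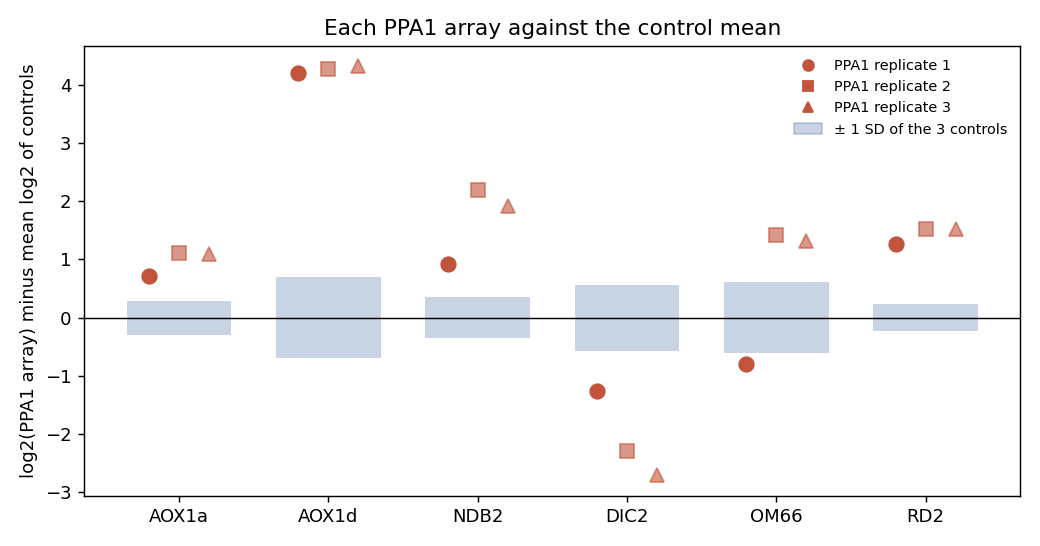
Log2 signal of each PPA1 array minus the mean log2 signal of the 3 controls, for each probe set; shaded boxes span 1 SD of the controls to each side of 0. PPA1 replicate 1 lies with the other arrays for AOX1d (4.21 against 4.28 and 4.32), nearer to 0 for NDB2 and DIC2, and below 0 for OM66.

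Since the hybridisation spikes set both replicate 1 arrays apart, the changes were also taken within replicate 1 and within replicates 2 and 3. Within replicate 1, with 1 array per condition and no test, PPA1 minus control was 3.41 for AOX1d, 0.63 for AOX1a, 0.53 for NDB2, -1.67 for DIC2, -0.87 for OM66 and 1.54 for RD2. Within replicates 2 and 3 the changes were 4.70, 1.15, 2.25, -2.30, 1.40 and 1.39 in the same order. The direction was shared by both sides in all members except OM66, and RD2 had about the same change on both. Limma adjusted p within replicates 2 and 3 was 0.0290 for AOX1d, 0.0469 for RD2 and 0.0377 for NDB2, and was above 0.05 for the other 3. This subset leaves out PPA1 replicate 1, which was singled out for its smaller changes in these data. The call of NDB2 there, against an adjusted p of 0.0947 with all arrays, is therefore no independent support. Of all tested probe sets, limma called 769 higher and 640 lower in the subset, against 184 and 226 with all arrays. With replicate 1 against the others as a block, AOX1d and RD2 were called (limma adjusted p = 0.0392 and 0.0472). With that block 166 of all tested probe sets were called higher and 163 lower. The part of the spike difference in these results was not tested.

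Genes of mitochondrial respiration and stress were also taken from 7 lists of 55 genes, of which the annotation table pairs 17 with a probe set. The member NDB2 is among these and is counted again below. No gene of the lists for alternative oxidases, uncoupling and dicarboxylate carriers, retrograde regulators or further stress genes was paired, and neither were the dehydrogenase genes NDA1 and NDA2. Apart from the members described above, these genes were therefore not analysed here, AOX1b, AOX1c, AOX2, ANAC013 and ANAC017 among them. In the other 3 lists, 0 of 18 probe sets were called higher or lower by limma, where 0.809% and 0.994% of all tested probe sets were. At an unadjusted p under 0.05, 1 of 5 for the type II dehydrogenases (NDB2), 2 of 5 for outer membrane and small mitochondrial stress proteins and 1 of 8 for the cytochrome pathway were higher, and 0 were lower, where 8.26% of all probe sets were higher and 14.8% lower. With dim probe sets set aside, 4 of the 17 that remained were called higher and 0 lower, against 5.39% and 8.79% of all. These 4 were NDB2, UPOX, HSP23.5 and CYTC-2, with limma adjusted p of 0.0320, 0.0309, 0.0302 and 0.0188. The median log2 changes of the 3 lists were 0.20 (0.18 without NDB2), 0.79 and -0.03, against -0.21 over all tested probe sets.

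Of the 5 type II dehydrogenase genes with a probe set, out of 7 listed, NDB2 was the 1 with separate groups. NDC1, a member found in plastids and mitochondria, had readings of 57.8, 65.6 and 89.0 in control replicates 1 to 3 and 83.8, 103 and 109.9 in PPA1 replicates 1 to 3. Its groups overlapped, and its log2 change was 0.50 (SE 0.25; limma adjusted p = 0.296). The other 3 probe sets, for further NDB genes, had log2 changes of -0.03 to 0.20 with overlapping groups.

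Among the small mitochondrial stress proteins, HSP23.5, a small heat shock protein of the mitochondrion, had the largest difference. Its signals were 66.8, 116 and 90.7 in control replicates 1 to 3 and 287, 1983 and 2244 in PPA1 replicates 1 to 3. The groups did not overlap, and PPA1 replicate 1 lay far below the other treated arrays. The log2 change was 3.61 (SE 0.84; limma adjusted p = 0.0906), and without PPA1 replicate 1 it was 4.57 (limma adjusted p = 0.00730). For HSP23.5, limma adjusted p without any other 1 array was 0.197 to 0.246. AT3G50940, which encodes an AAA-type ATPase related to OM66, was named after its values were seen. It gave 65.9, 66.6 and 80.1 in control replicates 1 to 3 and 53.3, 185 and 185 in PPA1 replicates 1 to 3, so that PPA1 replicate 1 lay below all controls as it did for OM66. Its log2 change was 0.79 (limma adjusted p = 0.412), and 1.39 without PPA1 replicate 1 (limma adjusted p = 0.0203). For AT3G50940, limma adjusted p without any other 1 array was 0.487 to 0.717. AT5G64400 and AT5G09570, which encode the related small proteins AT12CYS1 and AT12CYS2 and were also named after their values were seen, had log2 changes of 0.38 and 0.58 (limma adjusted p = 0.280 and 0.298). All treated arrays lay above all controls for AT12CYS1, while the groups overlapped for AT12CYS2.

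In the cytochrome pathway, CYTC-2, one of the genes for cytochrome c, differed most among the bright probe sets. Its signals were 992, 829 and 642 in control replicates 1 to 3 and 1702, 2586 and 2524 in PPA1 replicates 1 to 3. The groups did not overlap, and the log2 change was 1.47 (SE 0.28; limma adjusted p = 0.0672). A probe set for SDH2-1, a subunit of succinate dehydrogenase, had a log2 change of -1.34 (limma adjusted p = 0.460) at mean log2 signals of 1.02 ± 1.90 and -0.31 ± 0.80 (SD, n = 3 each), where signals are at the low end of the array. Without control replicate 2 this value was -0.33, and with 32 added to every signal it was -0.10, so no direction is read from it. A brighter probe set of the same gene had a log2 change of 0.13 with overlapping groups. The other 5 probe sets of this list had log2 changes of -0.20 to 0.23 with overlapping groups.

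**Figure D3:**
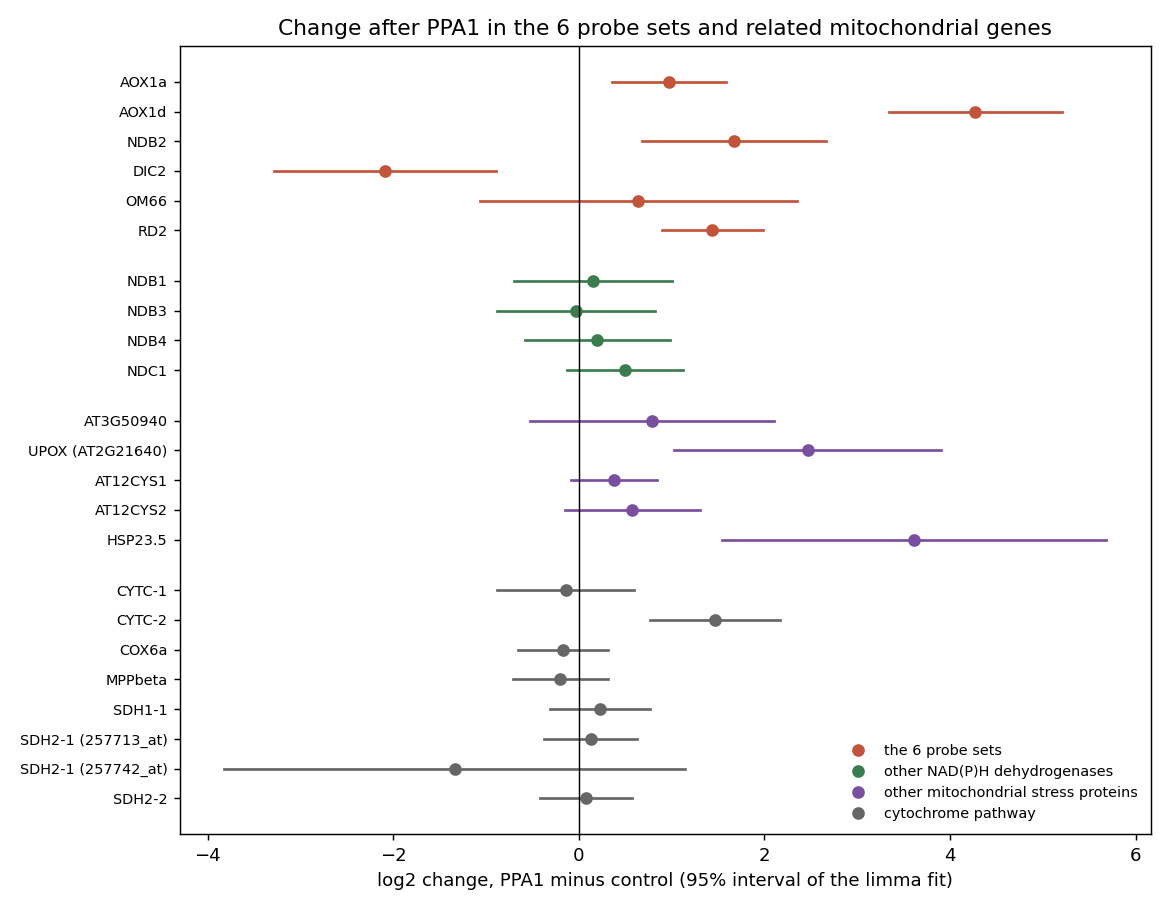
Log2 change, PPA1 minus control, with the 95% interval of the limma fit, for the 6 probe sets and for the probe sets of the other listed genes, coloured by list. Intervals are not adjusted for the number of probe sets; AOX1d at 4.27 and HSP23.5 at 3.61 lie farthest to the right and DIC2 at -2.09 farthest to the left.

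The probe sets most like AOX1a over the 6 arrays were sought among 10129 others whose log2 signal averaged 6 or more. The highest correlations of log2 signals were r = 0.995 for a probe set that the annotation table does not list, r = 0.993 for AT1G67660 and r = 0.993 for AT4G01280. These values are a description over 6 arrays that share the split between conditions. Their signals moved over a smaller range than that of AOX1a, with log2 changes of 0.61, 0.67 and 0.64, against 0.97 for AOX1a. None of the 3 was called (limma adjusted p from 0.150 to 0.166).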

How the data were processed

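Per the submitters' processing notes, the authors made the deposited intensity values with GCRMA, a background correction and summary of Affymetrix probes that uses their sequence. The sources used here give neither its version nor any later step. The linear scale was read from the values, 0.00178 to 11319.7. After leaving out 64 manufacturer controls, limma 3.58.1 (lmFit, eBayes; R 4.3.3) compared the log2 signals of 22746 probe sets between the conditions, with no other term. The p-values are two-sided and adjusted by Benjamini and Hochberg over all 22746, and intervals are 95% intervals of that fit. The probe sets are 258452_at (AOX1a), 260706_at (AOX1d), 255259_at (NDB2), 254120_at (DIC2), 252131_at (OM66) and 263517_at (RD2, listed as UPOX), and 263515_at stands for UPOX and 247617_at is the unlisted one most like AOX1a. The fit was tried on simulated data with planted changes and independent noise on each array, to check their sign and size and not the calls. The annotation table names 14016 probe sets, 13513 with 1 gene and 503 with several, while 8794 rows are not in it. Loci came from RefSeq (TAIR10.1) by gene ID, and symbols such as UPOX, AT12CYS1 and HSP23.5 are common names added by hand to the loci. Figures were drawn with matplotlib 3.10.9 in Python 3.11.15. The rule named all 6 members, the called genes of each list or else the 2 with the largest change, and the 3 probe sets most like AOX1a. Members, lists and alternatives were chosen with earlier results of these data known. No table used here holds sequences, so none are shown.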

Additional observations from a re-analysis of the deposited data

How the results depend on the processing

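The alternatives were chosen with earlier results of these data known, and each refitted the 6 members. Against 2 members called higher and 0 lower, the counts were 1 and 0 after quantile normalization. They were 4 and 1 with a limit of mean log2 at least 4 or at least 6, and with 32 added before log2. A robust variance trend, array weights, and the replicate block joined to the trend gave the same. At 6, AOX1d stayed only by its PPA1 mean (controls 5.50) and DIC2 by its control mean (PPA1 5.25). The replicate block alone gave 0 and 0 (limma, AOX1d and RD2 at adjusted p of 0.135 and 0.140), and joined to the limit of at least 4 it gave 2 and 1. Median centring gave 2 and 0, as did a block of replicate 1 against the others, and replicates 2 and 3 alone gave 3 and 0. Leaving out 1 array gave 0 to 3 higher and 0 to 1 lower, with 3 and 1 only without PPA1 replicate 1. With the limit of at least 4 it gave 1 to 5 and 0 to 1, against 110 to 2220 and 93 to 3415 of all 14850 probe sets. The counts of 5, 2220 and 3415 were without PPA1 replicate 1. No member changed direction in any of the 24 settings. The signal limits, blocks and variance trend left the log2 changes as they were, so they could not turn a direction. Leaving out arrays could not turn it in the members with separate groups. AOX1d passed in 18 of the 24 settings, RD2 in 15, DIC2 in 10, NDB2 in 9, AOX1a in 7 and OM66 in 1. Of the other named genes, CYTC-2 passed in 11, HSP23.5 in 9, UPOX in 8, AT3G50940 in 3 and AT12CYS2 in 1, all as higher, and NDC1, AT12CYS1 and SDH2-1 in 0. Of the 8 listed probe sets given only as a range, 7 changed sign in 1 to 10 settings, and 0 passed in any (limma). Over all tested probe sets, limma called 184 higher and 226 lower. The counts were 0 and 0 with the replicate block (unadjusted p under 0.05 in 1768 and 3032). They were 801 and 1305 of 14850 with the limit of at least 4, and 802 and 1046 of 10135 with at least 6. With 32 added they were 748 and 1349, with the trend 791 and 1171, and with array weights 2130 and 3324. The block gave 833 and 1096 with the trend, and 610 and 947 of 14850 with the limit. Replicates 2 and 3 gave 769 and 640. Without 1 array they were 0 to 1437 and 0 to 1708 (where 0, 1208 to 1567 and 2133 to 2790 passed unadjusted). The cause was not tested. To check whether equal numbers pair the arrays, their departures from the group means were correlated. For replicates 1 to 3, r was 0.06, 0.03 and 0.02 over every tested probe set. It was 0.16, 0.24 and 0.15 where log2 signals averaged 6 or more. Over every tested probe set, each array was most like the one with its own number, a hint from the data only, as the labels give a number no meaning.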
